A study of Homo sapiens with 8 samples.

Results

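The clade B serpins are a family of mostly intracellular protease inhibitors whose genes lie in 2 clusters, on chromosomes 18 and 6. Of 10 listed genes, SERPINB1, SERPINB3, SERPINB4, SERPINB5, SERPINB7, SERPINB8, SERPINB9 and SERPINB13 had a probe set annotated to 1 gene symbol, which makes 8 of the 19775 genes measured. SERPINB2 and SERPINB6 were not analysed here, because the probe annotation used lists no probe set for them. Where a gene had several such probe sets, the one with the highest mean over the 8 arrays represented it, so probe sets were selected on their mean measured level. The genes were listed by symbol and chosen by a proposal that had the YAP shRNA against control shRNA values in view, so the counts over its members are descriptions and support nothing by themselves.

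A serpin presents an exposed loop to its target protease, is cut there, and traps the enzyme in a stable complex. Clade B members lack a classical signal peptide and act mainly inside the cell, on granule serine proteases and lysosomal cathepsins. Several are prominent in stratified epithelia, where the chromosome 18 genes are best known, and the chromosome 6 genes are widely expressed and known from leukocytes.

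RNA came from HuCCT1, an established human cholangiocarcinoma (bile duct cancer) line, and was hybridised to 8 Affymetrix arrays. On 4 arrays the cells carried an shRNA against YAP1, labelled YAP shRNA 1, and on 4 a control shRNA. Cells of both groups were given doxycycline at 100 ng/ml for 3 days before seeding to induce the hairpin, so the control carries the drug as well. A single hairpin stands for the knockdown, and the labels do not say whether replicates were cultured apart. The p-values therefore cover the spread among these arrays, which may be technical. The series title speaks of overexpression. YAP1, the transcriptional coactivator of the Hippo pathway, read 10.40, 10.55, 10.51 and 10.54 on the YAP shRNA arrays, against 12.59, 12.61, 12.77 and 12.60 on the control arrays. These are log2 values, as are all levels given here. YAP1 was thus lower with its shRNA, by 4.41-fold (limma adjusted p = 6.15e-07), as the label of a knockdown has it.

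The deposited values ran from 1.72 to 14.9, with array medians between 6.22 and 6.25, and the number of arrays limits the precision. Control shRNA replicate 4 stood apart from its group. Its mean correlation across genes was 0.9967, against 0.9978 to 0.9980 for the other control arrays. Calls that changed without this array are given both ways. Other sizes of change are those of all arrays unless said. Of 6 measured biliary markers, 2 were called higher and 0 lower. The keratin genes KRT7 and KRT19 averaged 13.60 and 14.19 on YAP shRNA arrays and 13.68 and 14.04 on control arrays, of which KRT19 was called higher by limma at 0.15 (adjusted p = 0.0137). CFTR, the chloride channel gene, was called at 1.07, or 0.25 when its probe sets were averaged (limma adjusted p = 0.00128 and 0.0214). SPP1 lay below the first quartile of gene levels, 5.14, in both groups. For GAPDH, the control probe sets differed between 3' and 5' ends by 0.178 ± 0.0114 on YAP shRNA arrays and 0.198 ± 0.0116 on control arrays (SD, n = 4 each; two-sided exact permutation p = 0.0857, or 0.171 adjusted over 2 such measures).

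SERPINB7 fell steeply, SERPINB1 rose, and no other measured member passed the test. SERPINB7 was 3.67-fold lower and SERPINB1 was 1.47-fold higher with the YAP shRNA. Of the 8 members, 1 was called higher and 1 lower at a limma adjusted p below 0.05 over all genes. Of all 19775 genes, 16.7% were called, 9.49% higher and 7.17% lower. Without control shRNA replicate 4, 3 members were called higher and 1 lower. The background moves too: with 1 array left out, all genes called numbered 2381 to 3881, against 3294 with all 8. The groups did not overlap for 3 members, SERPINB7, SERPINB1 and SERPINB8, while they did not overlap for 24.3% of all genes. The median log2 fold change was 0.09 over the members and 0.01 over all genes. Of the members, 5 lay above the first quartile of gene levels over the 8 arrays. The dim ones were SERPINB3, SERPINB4 and SERPINB13.

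**Figure D1:**
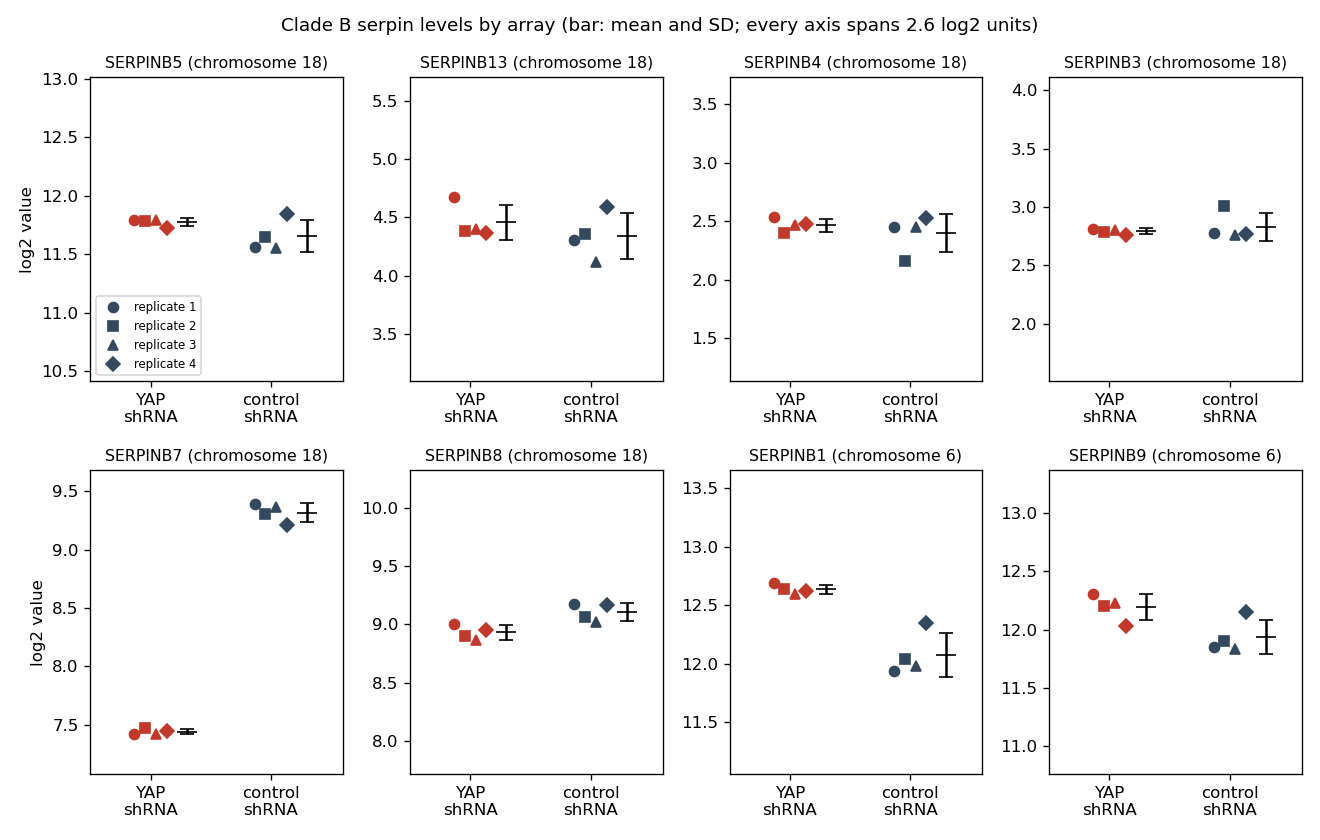
Each panel shows 1 clade B serpin, with its log2 value on every array for YAP shRNA (red, left) and control shRNA (dark, right). Marker shapes give the replicate number, the bar the mean and SD of 4 arrays, and each axis covers the same span around its own level. SERPINB7 sits near 7.44 on YAP shRNA arrays against 9.32 on control arrays, and SERPINB1 near 12.64 against 12.08. Control replicate 4 is the highest control array for SERPINB1, SERPINB5 and SERPINB9, and for the dim SERPINB4 and SERPINB13.

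SERPINB7, also called megsin, was first known from kidney mesangial cells and is expressed in the upper epidermis, where its loss causes Nagashima-type palmoplantar keratosis. It read 7.42, 7.47, 7.42 and 7.45 on the YAP shRNA arrays, against 9.39, 9.31, 9.36 and 9.21 on the control arrays. The RNA is that of the whole culture, so fewer cells that express a gene and less RNA per cell cannot be told apart. Every YAP shRNA array lay far below every control array, and the arrays of each group lay close together. The means were 7.44 ± 0.024 with the YAP shRNA and 9.32 ± 0.081 with the control shRNA (SD, n = 4 each). The log2 difference was -1.87 (standard error 0.047), with a 95% interval of -1.98 to -1.77 (limma adjusted p = 6.15e-07). Among all genes it was the fall of rank 7. This value rests on 1 probe set, of a type that can match more than 1 transcript, so no other probe set of the gene could be set beside it.

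The genes whose values followed SERPINB7 most closely over the 8 arrays were LIFR, CCN1, C1orf21, MSRB3 and YAP1. Their Pearson r lay between 0.9977 and 0.9990, a description over arrays that also share the difference between the groups. LIFR, a receptor subunit for cytokines of the IL6 family, averaged 8.93 on YAP shRNA arrays and 10.11 on control arrays, a log2 fold change of -1.18 (limma adjusted p = 3.94e-06). CCN1, a secreted matricellular protein and classical YAP target, averaged 11.50 on YAP shRNA arrays and 12.50 on control arrays, and was called lower (limma adjusted p = 7.92e-06). C1orf21 fell by 0.80 on the log2 scale. Its brightest probe set outside the types that can match more than 1 transcript gave 0.014 (standard error 0.139, limma adjusted p = 0.966).

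RefSeq lists 3 start sites for SERPINB7 in its promoter table, and their windows are shown because this gene had the largest change in the family and its starts differ in the motifs they hold. Windows run from 250 bases before to 50 bases after the start, on build GRCh38.p14. All lie on the plus strand, start 1 at chr18:63752807-63753106, start 2 at chr18:63775168-63775467 and start 3 at chr18:63777531-63777830. Capitals mark matches to any of 3 motifs searched on both strands: GGAATG, the core bound by TEAD factors, TGANTCA, the site of AP-1 factors, and TTCNNNGAA, a site of STAT factors.
SERPINB7, start 1: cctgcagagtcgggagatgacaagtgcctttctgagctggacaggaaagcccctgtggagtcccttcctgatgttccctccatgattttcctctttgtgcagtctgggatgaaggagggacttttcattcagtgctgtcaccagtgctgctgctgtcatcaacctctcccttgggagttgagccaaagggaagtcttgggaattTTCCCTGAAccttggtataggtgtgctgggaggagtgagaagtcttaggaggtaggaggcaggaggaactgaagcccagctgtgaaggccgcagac
SERPINB7, start 2: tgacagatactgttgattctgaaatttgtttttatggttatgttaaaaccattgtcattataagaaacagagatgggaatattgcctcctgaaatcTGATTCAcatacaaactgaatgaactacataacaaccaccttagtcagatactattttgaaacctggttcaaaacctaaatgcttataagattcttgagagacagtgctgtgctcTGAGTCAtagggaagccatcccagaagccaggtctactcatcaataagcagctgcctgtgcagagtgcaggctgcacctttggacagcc
SERPINB7, start 3: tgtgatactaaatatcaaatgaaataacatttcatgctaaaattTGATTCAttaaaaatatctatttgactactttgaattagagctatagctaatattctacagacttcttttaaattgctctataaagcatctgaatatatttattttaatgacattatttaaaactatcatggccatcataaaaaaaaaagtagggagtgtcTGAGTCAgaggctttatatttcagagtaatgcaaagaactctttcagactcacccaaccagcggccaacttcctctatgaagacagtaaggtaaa
The window of start 1 held 1 match to TTCNNNGAA, beginning at position -46 from the start site. That of start 2 held 2 matches to TGANTCA, at -154 and -39, and that of start 3 held 2, at -206 and -45. None of the 3 windows held GGAATG, which says only that these letters are not in them. Over all 35116 windows of the table, 14% held GGAATG, 7.71% TGANTCA and 7.66% TTCNNNGAA. The array does not tell which start was used, and a match is a description, not a bound site.

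SERPINB8, which inhibits furin and other proteases and whose loss causes a peeling skin disorder, did not pass the test. It read 9.01, 8.90, 8.87 and 8.95 on the YAP shRNA arrays, against 9.18, 9.06, 9.02 and 9.17 on the control arrays. The lowest control array and the highest YAP shRNA array almost touched, and the groups did not overlap. The log2 fold change was -0.18, with a 95% interval of -0.30 to -0.06 (limma adjusted p = 0.0535). A dim second probe set gave -0.37 with overlapping groups. The window at its start held 2 matches to TGANTCA and 1 to TTCNNNGAA. The call depended on the setting: SERPINB8 was called lower in 8 of 20 alternatives and not called in the other 12. Among the 8 were quantile normalization (limma adjusted p = 0.0465), the mean of its probe sets (0.0172) and leaving out control shRNA replicate 3 (0.0430). Over all alternatives the limma adjusted p ran from 0.0169 to 0.139.

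SERPINB5, or maspin, is a family member without protease inhibitor activity, known as an epithelial gene lost in some invasive tumours. It read 11.79, 11.78, 11.80 and 11.72 on the YAP shRNA arrays, against 11.56, 11.64, 11.56 and 11.85 on the control arrays. The YAP shRNA arrays lay close together and above 3 of the control arrays, while control shRNA replicate 4 lay above all of them. The log2 fold change was 0.12, with a 95% interval of -0.03 to 0.27 (limma adjusted p = 0.276). Without control shRNA replicate 4 it was 0.19 and passed the test (limma adjusted p = 0.0151). SERPINB5 was called in 2 of 20 alternatives, the other being array weights (0.17, limma adjusted p = 0.0373).

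SERPINB3 and SERPINB4, the closely related squamous cell carcinoma antigens, were dim on every array. SERPINB3 is known to inhibit cysteine cathepsins, and SERPINB4 chymotrypsin-like serine proteases such as cathepsin G. SERPINB3 read 2.81, 2.79, 2.81 and 2.76 on the YAP shRNA arrays, against 2.77, 3.01, 2.76 and 2.77 on the control arrays. SERPINB4 read 2.53, 2.40, 2.46 and 2.47 on the YAP shRNA arrays, against 2.45, 2.16, 2.45 and 2.53 on the control arrays. The groups overlapped for both genes, and both stayed far under the first quartile of gene levels. The log2 fold changes were -0.04 for SERPINB3, with a 95% interval of -0.18 to 0.10, and 0.07 for SERPINB4, with one of -0.11 to 0.25. A probe set annotated to both genes averaged 3.32 on YAP shRNA arrays and 3.42 on control arrays. Near-identical copies such as these can share probes, so their values are not independent. The promoter window of each held 1 match to GGAATG, beginning 8 bases before the start site.

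SERPINB13, also known as headpin or hurpin, is a keratinocyte inhibitor of cathepsins K and L. It read 4.68, 4.38, 4.40 and 4.37 on the YAP shRNA arrays, against 4.31, 4.36, 4.11 and 4.59 on the control arrays. The groups overlapped and the gene was dim in both. Its 6 probe sets gave log2 fold changes from -0.17 to 0.13, 2 of them above 0, and none was called by limma. The main one gave 0.12, with a 95% interval of -0.13 to 0.36 (limma adjusted p = 0.547).

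**Figure D2:**
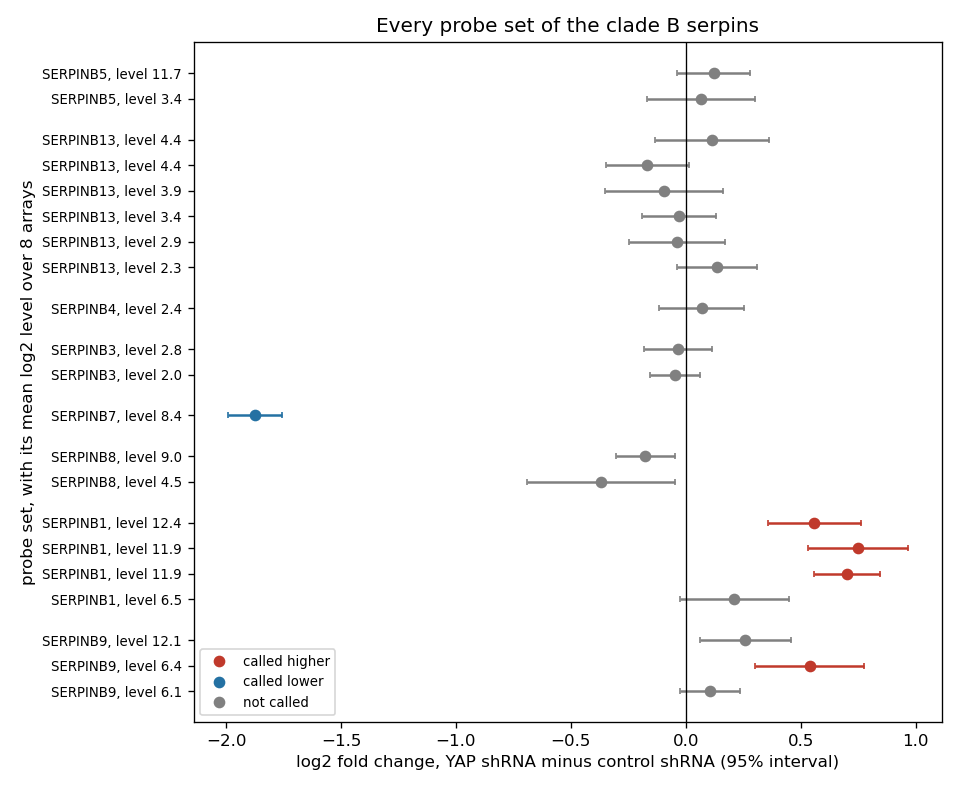
Points show the log2 fold change, YAP shRNA minus control shRNA, of every probe set of the 8 members with its 95% limma interval, and the vertical axis names the gene and the probe set's mean log2 level. SERPINB7 stands alone at -1.87, 3 of 4 SERPINB1 probe sets lie between 0.56 and 0.75, and those of SERPINB3, SERPINB4 and SERPINB13 scatter about 0.

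SERPINB1 and SERPINB9, the 2 measured members on chromosome 6, were both bright and both read higher on average with the YAP shRNA. SERPINB1, the leukocyte elastase inhibitor, blocks neutrophil elastase, cathepsin G and proteinase 3. It read 12.69, 12.64, 12.60 and 12.62 on the YAP shRNA arrays, against 11.93, 12.04, 11.98 and 12.35 on the control arrays. All YAP shRNA arrays lay above all control arrays, and control shRNA replicate 4 was the control nearest to them. The log2 difference was 0.56 (standard error 0.087), with a 95% interval of 0.36 to 0.76 (limma adjusted p = 0.00285). Of its 4 probe sets, 3 were called higher, at 0.56, 0.70 and 0.75, against 10.2% of all probe sets called in either direction. The remaining one gave 0.21 with overlapping groups.

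SERPINB9 is the inhibitor of granzyme B, through which cells resist cytotoxic lymphocytes. It read 12.31, 12.20, 12.23 and 12.03 on the YAP shRNA arrays, against 11.85, 11.90, 11.83 and 12.15 on the control arrays. The groups overlapped through YAP shRNA replicate 4, the lowest of its group, and control shRNA replicate 4, the highest of its group. The log2 fold change was 0.26, with a 95% interval of 0.06 to 0.45, and did not pass the test (limma adjusted p = 0.0744). Without control shRNA replicate 4 it was 0.33 and passed (limma adjusted p = 0.0112). SERPINB9 was called higher in 6 of 20 alternatives, among them the mean of its probe sets (0.30, limma adjusted p = 0.00306). The limma adjusted p ran from 0.00306 to 0.203 over all alternatives. Of its other probe sets, 1 gave 0.54 and was called higher (limma adjusted p = 0.0131), and the other gave 0.10.

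The likeness list of SERPINB1 held TLR6, SDR16C5, CLDN4, S100A2 and SEL1L3, with Pearson r between 0.9938 and 0.9957 over the 8 arrays. CLDN4, a tight junction protein, averaged 10.15 on YAP shRNA arrays and 9.59 on control arrays, a log2 fold change of 0.56 (limma adjusted p = 0.00128). S100A2, a calcium-binding protein of basal epithelia, averaged 13.23 on YAP shRNA arrays and 12.82 on control arrays, a log2 fold change of 0.41 (limma adjusted p = 0.00355).

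The starts of these chromosome 6 genes are shown beside each other because both genes read higher with the YAP shRNA. Both lie on the minus strand of GRCh38.p14, the window of SERPINB1 at chr6:2841814-2842113 and that of SERPINB9 at chr6:2903260-2903559. Capitals mark the same motifs as above.
SERPINB1: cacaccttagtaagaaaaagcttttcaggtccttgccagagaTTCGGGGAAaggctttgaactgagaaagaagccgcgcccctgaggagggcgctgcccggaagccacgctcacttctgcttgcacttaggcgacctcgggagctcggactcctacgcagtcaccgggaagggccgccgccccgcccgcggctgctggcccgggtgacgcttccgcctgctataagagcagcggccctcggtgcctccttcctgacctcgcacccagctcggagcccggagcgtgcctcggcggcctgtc
SERPINB9: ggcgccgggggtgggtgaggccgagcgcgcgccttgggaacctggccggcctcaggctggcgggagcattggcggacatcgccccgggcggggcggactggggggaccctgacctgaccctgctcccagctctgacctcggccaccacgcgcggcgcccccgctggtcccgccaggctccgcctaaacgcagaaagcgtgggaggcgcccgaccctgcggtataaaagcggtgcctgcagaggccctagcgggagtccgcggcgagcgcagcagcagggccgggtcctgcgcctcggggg
The SERPINB1 window held 1 match to TTCNNNGAA, beginning at -208, and neither of the other motifs. The SERPINB9 window held none of the 3. TGANTCA lay in the windows of starts 2 and 3 of SERPINB7 and in neither of these. It did not set SERPINB7 apart, since it also lay in the windows of SERPINB8, SERPINB5 (at -146), SERPINB13 (-87) and SERPINB2 (-102). SERPINB5, SERPINB8 and SERPINB13 were not called, and SERPINB2 was not measured. Start 1 of SERPINB7 held no TGANTCA but, like SERPINB1, 1 match to TTCNNNGAA.

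The genes around each cluster were set beside its members. On chromosome 18, 6 members were measured, of which SERPINB7 fell and none was called higher, with a median log2 fold change of 0.02. Of the 10 nearest measured genes outside the family, 5 on each side, none was called by limma, and 2 had an unadjusted p under 0.05. These were not SERPINB7's direct neighbours, since the clade B genes adjoin each other. Their log2 fold changes ran from -0.22 for ZCCHC2 to 0.15 for CDH7. The 5 beyond SERPINB8, namely LINC00305, LINC01924, LINC01538, CDH7 and CDH19, all lay below the first quartile of gene levels. SERPINB11 and SERPINB10, the measured genes on either side of SERPINB7, are clade B genes outside the list. SERPINB11 averaged 3.84 on YAP shRNA arrays and 3.68 on control arrays, a log2 fold change of 0.16 (limma adjusted p = 0.256). SERPINB10, or bomapin, a serpin of blood-forming cells, read 4.24, 4.09, 4.01 and 3.99 on the YAP shRNA arrays, against 4.54, 4.36, 4.86 and 4.30 on the control arrays. This dim gene was called lower at -0.43 (limma adjusted p = 0.0415), and the call was lost without any 1 of YAP shRNA replicates 1 to 4 and control shRNA replicate 1 (0.0501 to 0.109). SERPINB12 stood at -0.01 (limma adjusted p = 0.922). Of all 303 measured genes of chromosome 18, 19.8% were called, 9 higher and 51 lower, with a median of -0.04. Among its 151 genes above the median gene level, 33.1% were called and the median was -0.10.

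On chromosome 6, SERPINB1 rose and SERPINB9 was not called, with a median log2 fold change of 0.41. Of the 11 measured genes around and between them, 5 were called higher and 1 lower. Only LINC01600, HTATSF1P2 and LINC02525 among these lay below the first quartile of gene levels, so the 2 sets of neighbours differ in brightness. Of all 1089 measured genes of chromosome 6, 17.2% were called, 115 higher and 72 lower, with a median of 0.01, and 29.9% of its 521 genes above the median gene level were called. No test of either cluster was made. The gene between the members was SERPINB9P1, a transcribed pseudogene of SERPINB9. It read 6.28, 6.18, 6.13 and 6.40 on the YAP shRNA arrays, against 5.33, 5.15, 5.14 and 5.45 on the control arrays. All YAP shRNA arrays lay above all control arrays, and the log2 fold change of 0.98 was the highest in either cluster (limma adjusted p = 0.000189). A probe set of a pseudogene can also bind its parent gene's RNA, and this was not tested.

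Next to SERPINB1, WRNIP1, a helicase-interacting protein, rose by 0.29 (limma adjusted p = 0.0264) and MYLK4, a kinase gene, by 0.60 (limma adjusted p = 0.0178). Beyond SERPINB9, NQO2, a quinone reductase, rose by 0.27 (limma adjusted p = 0.00238) and BPHL, a hydrolase, by 0.62 (limma adjusted p = 0.000300). TUBB2A, a beta-tubulin, fell by 0.28 (limma adjusted p = 0.00605). On their brightest probe sets outside the types that can match more than 1 transcript, WRNIP1 stood at 0.10 and NQO2 at 0.08. Neither was called there (limma adjusted p = 0.371 and 0.496). MYLK4 lost its call with the mean of its probe sets (limma adjusted p = 0.103) and without control shRNA replicate 2 (0.0501). WRNIP1 lost its call without YAP shRNA replicate 2 or 4 or control shRNA replicate 2 (0.0676 to 0.0691). Without control shRNA replicate 4, the counts around the chromosome 6 members were again 5 higher and 1 lower.

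**Figure D3:**
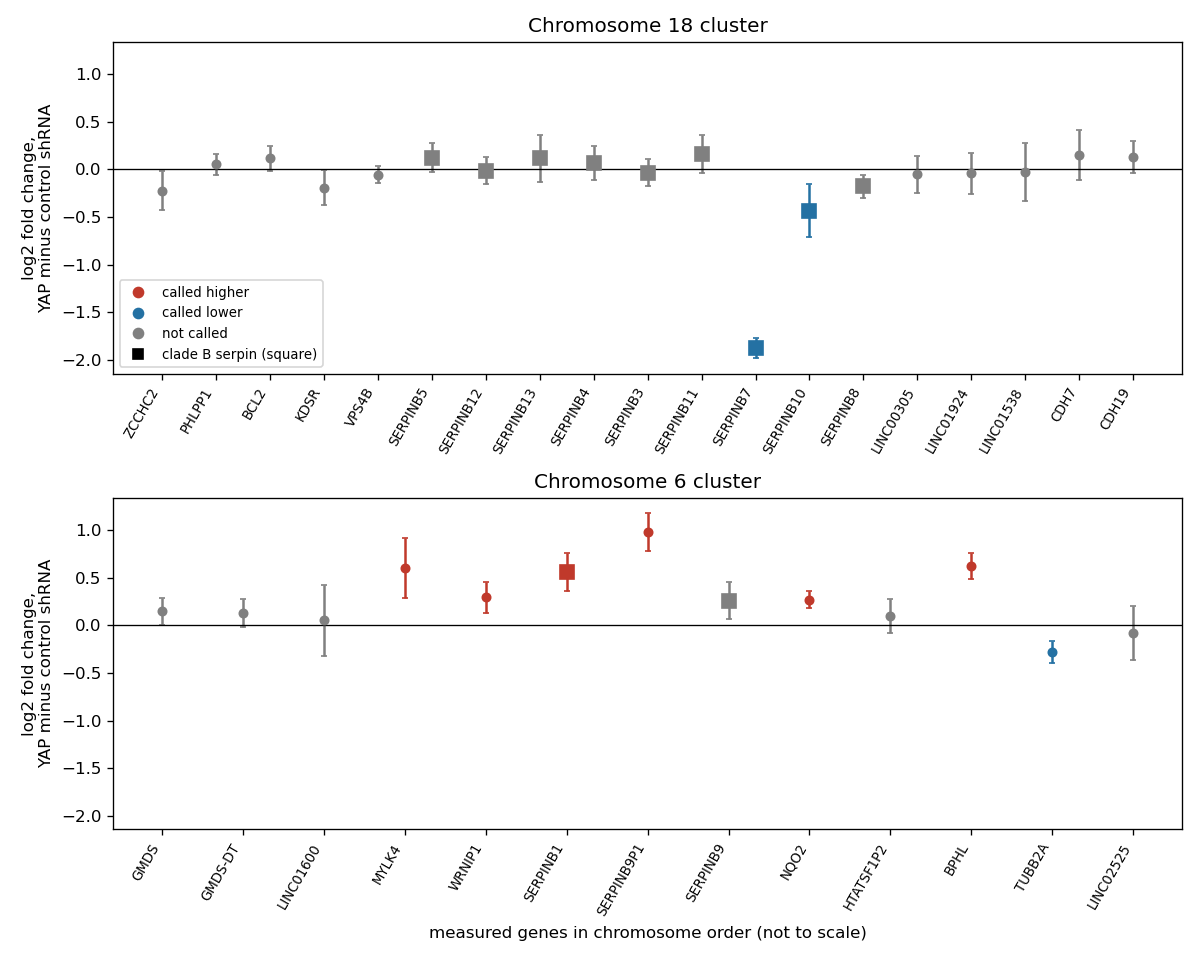
Log2 fold changes, YAP shRNA minus control shRNA, with 95% limma intervals for the measured genes of each cluster and the 5 nearest on each side, in chromosome order and not to scale. Squares are clade B serpins and colours give the call. SERPINB7 lies at -1.87 among genes of chromosome 18 between -0.43 and 0.16, while the chromosome 6 genes from MYLK4 to BPHL all lie above 0.

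Several proteases rose, some of a kind that clade B serpins are known to inhibit. Of 16 measured kallikreins, epithelial serine proteases and their inhibitors, 9 were called higher and 0 lower by limma. Of these 16, 10 had an unadjusted p under 0.05, and the median log2 fold change was 0.31. Of all genes, 16.7% were called in either direction, or 26.6% of those above the median gene level. Counts over the gene and marker lists stand against these shares and by themselves set no list apart. The shares are those of all 8 arrays, and with 1 array left out the genes called numbered 2381 to 3881. TMPRSS2, a membrane serine protease, averaged 8.98 ± 0.064 on YAP shRNA arrays and 7.74 ± 0.152 on control arrays (SD, n = 4 each; limma adjusted p = 3.60e-05). The log2 fold change of TMPRSS2 was 1.24, or 0.61 when its probe sets were averaged, and it was called in both. KLK6 and KLK10, kallikrein-related peptidase genes, rose by 0.97 and 0.80 (limma adjusted p = 2.53e-05 and 0.000661). FURIN, the proprotein convertase that SERPINB8 inhibits, averaged 9.98 ± 0.064 on YAP shRNA arrays and 9.43 ± 0.069 on control arrays, a log2 fold change of 0.54 (SD, n = 4 each; limma adjusted p = 0.000228). FURIN thus rose while SERPINB8, its inhibitor, stood at -0.18 without being called.

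Of 12 cathepsins, 6 were called higher and 2 lower, with a median log2 fold change of 0.12. Of all genes, 9.49% were called higher and 7.17% lower. CTSS, a lysosomal cysteine protease, rose most, by 0.84 (limma adjusted p = 8.59e-05), followed by CTSO and CTSB by 0.50 and 0.42. Over all alternatives CTSS ranged from 0.61 to 0.88. CTSV, a close relative of cathepsin L, fell by 0.64 (limma adjusted p = 0.000308) and CTSC, which activates granule serine proteases, fell by 0.49 (limma adjusted p = 0.00126). The cathepsin targets of SERPINB13 were not called: CTSL stood at -0.07 and CTSK at 0.04 (limma adjusted p = 0.329 and 0.817).

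Of 9 granule serine proteases, among them targets of SERPINB1 and SERPINB9, 4 lay below the first quartile of gene levels. None of the 9 was called by limma, and 0 had an unadjusted p under 0.05. GZMB, which encodes granzyme B, averaged 3.70 on YAP shRNA arrays and 3.68 on control arrays. ELANE, neutrophil elastase, averaged 5.15 on YAP shRNA arrays and 5.19 on control arrays, and CTSG, cathepsin G, 5.70 on YAP shRNA arrays and 5.67 on control arrays. None of the 9 lay above the median gene level of 7.44, so the absence of calls says little about these targets.

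Of 9 genes of plasminogen activation, 2 were called higher and 0 lower, or 3 higher and 1 lower without control shRNA replicate 4. PLAU, the urokinase gene, rose by 0.40 and PLAUR, its receptor, by 0.30 (limma adjusted p = 0.000293 and 0.00241). Of 7 caspases, 3 were called higher and 0 lower. CASP10 rose by 0.37, or 0.24 when its probe sets were averaged, and CASP9 by 0.42. CASP9 gave 0.05 on a probe set outside the types that can match more than 1 transcript. CASP1 and CASP4, caspases of inflammation, stood at 0.07 and -0.02 and were not called.

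Among 17 measured serpins of other clades, 4 were called higher and 1 lower, with a median log2 fold change of 0.08. SERPIND1, the secreted thrombin inhibitor heparin cofactor II, averaged 6.70 ± 0.209 on YAP shRNA arrays and 5.43 ± 0.089 on control arrays (SD, n = 4 each), a log2 fold change of 1.27 (limma adjusted p = 0.000111). SERPINF2, which inhibits plasmin, rose by 0.31 (limma adjusted p = 0.00317). SERPINE2, or protease nexin 1, an inhibitor of thrombin and urokinase, fell by 0.64 (limma adjusted p = 0.0113), with control shRNA replicate 4 at 10.30 against 9.65 to 9.76 on the other control arrays.

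**Figure D4:**
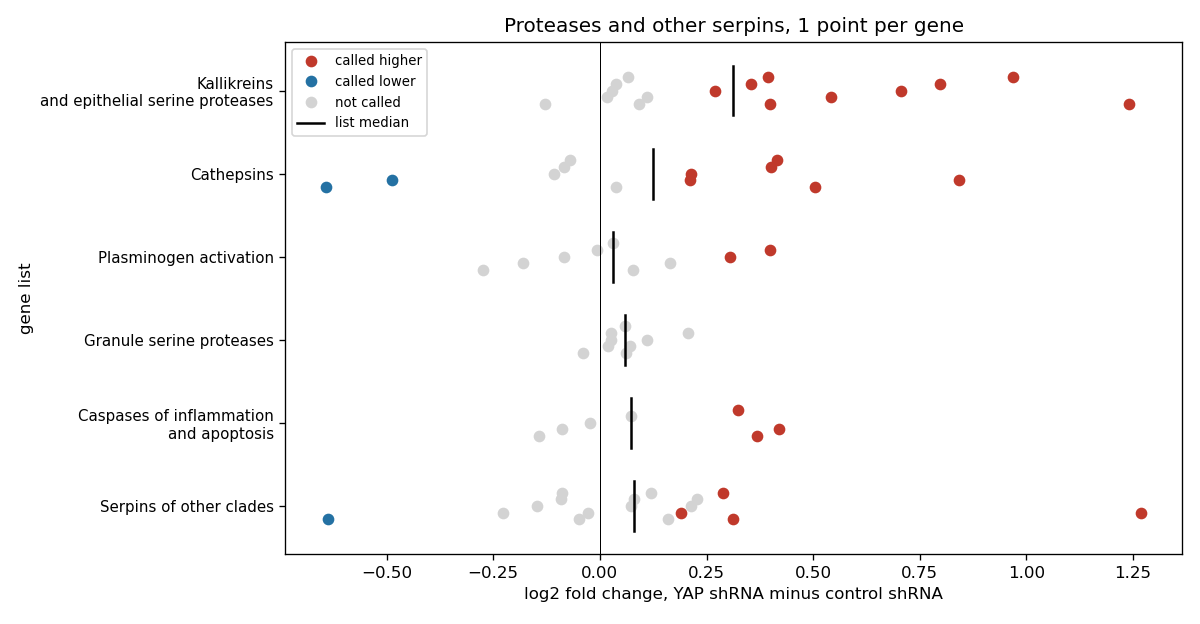
Each point is 1 gene, placed by its log2 fold change, YAP shRNA minus control shRNA, and vertical bars are list medians. There are 5 lists of proteases and genes tied to them, and 1 of serpins outside clade B. The top list includes the inhibitors SPINT1 and SPINT2, of which SPINT1 is called higher. In the top list 9 of 16 genes are called higher, with TMPRSS2 at 1.24 on its brightest probe set, while none of the granule serine proteases is called.

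Genes of stratified epithelium, where several chromosome 18 members are known, moved both ways. Of 11 measured, 2 were called higher and 1 lower, or 4 higher and 1 lower without control shRNA replicate 4. DSG3, a desmosomal cadherin, rose by 1.40 (limma adjusted p = 2.23e-05) and KRT13, a keratin of internal stratified epithelia, by 0.57 (limma adjusted p = 0.00204). DSC3, another desmosomal cadherin, fell by 1.30 (limma adjusted p = 0.000575). Of 8 measured regulators tied to clade B serpins, 3 were called higher and 0 lower. STAT6, the transcription factor of the interleukin 4 and 13 pathway, which induces SERPINB3 and SERPINB4, averaged 11.95 ± 0.022 on YAP shRNA arrays and 11.55 ± 0.147 on control arrays (SD, n = 4 each; limma adjusted p = 0.00553). NFKB1 rose by 0.27 (limma adjusted p = 0.00608). PRDM1 was called at 0.60 with overlapping groups (limma adjusted p = 0.0489), and its call was lost without any 1 of the YAP shRNA arrays or of control shRNA replicates 1 to 3 (0.0990 to 0.116).

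Markers of other cell types were read because SERPINB1 and SERPINB9 are also leukocyte genes. Of 7 measured myeloid markers, LYZ, CD14 and CSF1R were called higher, by 0.86, 0.46 and 0.31, and PTPRC, the gene of the leukocyte surface protein CD45, was called lower at -0.22. Of these 7, 4 lay below the first quartile of gene levels, PTPRC at 3.74 on YAP shRNA arrays and 3.96 on control arrays. The call on PTPRC was lost without any 1 of 6 arrays, the YAP shRNA replicates 2 to 4 and the control shRNA replicates 2 to 4, and that on CSF1R without YAP shRNA replicate 3 or 4. PTPRC gave -0.05 when its probe sets were averaged and was not called (limma adjusted p = 0.498). The summed linear signal of the 7 ran from 360.4 to 417.1 on YAP shRNA arrays and from 267.2 to 315.0 on control arrays. Such a sum weighs the brightest genes most, here LYZ and CD14. LYZ averaged 7.19 on YAP shRNA arrays and 6.33 on control arrays, and CD14 6.42 and 5.96. The part of the 7 markers in the SERPINB1 result was not tested. Of 8 cytotoxic lymphocyte markers, none was called by limma, 1 had an unadjusted p under 0.05, and 5 lay below the first quartile. Without control shRNA replicate 4, 3 myeloid markers were called higher and 0 lower, and 0 lymphocyte markers were called. Of 5 fibroblast markers, COL1A1, a collagen chain, was called higher at 0.52, or 0.29 when its probe sets were averaged, and of 6 keratinocyte markers DSG3 alone was called. None of 5 hepatocyte markers was called by limma, and 0 had an unadjusted p under 0.05.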

How the data were processed

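RNA from HuCCT1 cells with a YAP1 shRNA or a control shRNA (4 arrays each) was purified on columns, then amplified (NuGEN) and labelled with biotin, per the labels' protocols. The authors deposited log2 values, with 1 value for a probe set on an array. Their log base is inferred from the range, and how they were background-corrected, summarised and normalized is not given in the sources used here. They were used as deposited. Of 54675 probe sets, 41097 had 1 gene symbol in GEO's platform annotation, of which 41043 were found by Entrez ID among RefSeq genes of GRCh38.p14, used for names and gene order only. Promoter sequences came from RefSeq (GRCh38.p14), and all 10 listed members matched, with 15 starts.

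The fit was limma (version 3.58.1, R 4.3.3), YAP shRNA minus control shRNA, with no block and no filter, on 19775 genes, each by its brightest probe set with 1 symbol. Adjusted p is Benjamini-Hochberg over all genes, or over all probe sets for single probe sets, and a gene is called below 0.05. Intervals are 95% limma intervals. A first quartile of gene levels marks dim genes. The members and lists were chosen with earlier results of these data known. Named genes are the members, YAP1, CCN1, SERPINB10 to SERPINB12, the 5 nearest measured genes on each side of a cluster, the strongest called genes of each list, targets of a member, and the 5 genes most like SERPINB7 and SERPINB1. The fit was tested on simulated data. Alternatives were other normalizations, filters, probe set rules, spread models, thresholds, array weights, leaving out each array and a replicate block. Figures used matplotlib 3.10.9.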

Additional observations from a re-analysis of the deposited data

Results flagged for a closer look

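In 120 groups of 4 values, made of 58 named genes and 2 RNA quality measures in each group, 13 had 1 array that stood well apart from the other 3, and chance alone gives about 6. Of the clade B serpins, SERPINB13 was high at 4.68 in YAP shRNA replicate 1 (4.37 to 4.40 on the other 3 arrays) and SERPINB3 high at 3.01 in control shRNA replicate 2 (2.76 to 2.77), both in the dim range. In control shRNA replicate 4, CCN1 was low at 12.43 (12.52), CTSC at 13.81 (14.05 to 14.09), STAT6 at 11.33 (11.59 to 11.64) and NFKB1 at 10.33 (10.49 to 10.51). SERPINE2 was high there at 10.30 (9.65 to 9.76) and SDR16C5 at 12.22 (12.01 to 12.04). With 1 array left out, log2 fold changes ran from -0.71 to -0.49 for SERPINE2 and from -0.55 to -0.46 for CTSC. Those of STAT6 ran from 0.32 to 0.43 and those of NFKB1 from 0.23 to 0.29. In control shRNA replicate 3, YAP1 was high at 12.77 (12.59 to 12.61), KLK6 low at 6.20 (6.31 to 6.33) and the 3' minus 5' difference of GAPDH low at 0.181 (0.201 to 0.205). In YAP shRNA replicate 1, KLK10 was low at 10.84 (10.99 to 11.02) and the 3' minus 5' difference of ACTB high at 1.16 (0.964 to 0.988).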

How the results depend on the processing

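Across the 8 members and all alternatives, 135 of 151 values kept their side of the threshold, 16 passed it where the values as deposited did not, and 0 called values changed sign. SERPINB7 ranged from -1.91 to -1.85 and SERPINB1 from 0.51 to 0.75, both called in every alternative that measured them. Probe sets of types that can match more than 1 transcript are those ending in _x_at, _s_at or _a_at. SERPINB3, SERPINB4 and SERPINB7 have no value once these are left out. The number of members called, 2 as deposited, was 4 of the 5 measured without genes below the median level. It was 4 of 8 when a gene's probe sets were averaged. It was also 4 with an intensity trend and at an adjusted p below 0.10, and 5 with array weights. It was 1 without those types of probe sets, where fewer members were measured. It ranged from 2 to 4 with 1 array left out, and was 4 without control shRNA replicate 4. All genes called numbered 1785 at an adjusted p below 0.01 and 2106 with the replicate block, against 3294. Over all alternatives they numbered 1785 to 4514, so the share of all genes called also moved with the setting. With 1 array left out they numbered 2381 to 3881. Around the chromosome 18 cluster, 1 gene was called when a gene's probe sets were averaged. C1orf21 gave 0.014 without probe sets of the types that can match more than 1 transcript. For the other results the cause of a change was not tested.

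The replicate numbers gave no sign of pairing. Same-numbered arrays of the 2 groups correlated at -0.21 to 0.0020 in their deviations from the group means. With 4 arrays in a group, this cannot settle whether the arrays were handled in pairs. With the replicate block, 2 members were called, SERPINB7 and SERPINB1, and YAP1 stood at -2.14. The calls on SERPINB10, MYLK4, WRNIP1, KRT19, CSF1R, PTPRC, PRDM1 and SERPINA5 were lost with the block. Brightness limits SERPINB3, SERPINB4 and SERPINB13, whose values carry no detection call.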
